A study of Mus musculus with 26 samples.

Results

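Of 25068 regions of open chromatin found in mouse pluripotent cell lines, 498 (1.99%) were held by formative stem (FS) and epiblast stem cell (EpiSC) lines alike. These 498 had no peak among the top 8044 of any list from embryonic stem (ES) cells. They were chosen by a rule on the peak lists themselves. From each of 18 lists the top 8044 peaks by −log10 p were used, as many as the shortest list (ES library 2) holds. The peaks were merged into union regions, and a region was kept when at least 2 of the 3 lists of each of 5 lines overlapped it and none of the 3 ES lists did. The 5 lines were FS1 (passage 21) and FS2 (passage 29), both grown in the medium labelled A3XR, EpiSC_AF (passage 22, medium AF), and EpiSC_AFX1 (passage 14) and EpiSC_AFX2 (passage 16), both in medium AFX. The ES cells (passage 16) were grown in 2iL, the medium with MEK and GSK3 inhibitors and LIF that keeps mouse cells naive. A separate set of 8 libraries, labelled Rd2, took no part in the choice. It held 2 libraries of ES cells in 2iL at passage 33 (source label Rd2GFP, written Rd2_GFP here), 4 of EpiLC, made from ES cells in AF with KSR over 2 days and sorted for low GFP, and 2 of EpiSC in AFX at passage 16. The labels mark the Rd2 cells as WT and give no other genotype or strain, nor do they say whether the libraries of a line came from separate cultures, so every spread here is a spread between libraries. Each first-set line is a single line under 1 name in the labels.

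Pluripotency passes through states. Naive ES cells resemble the epiblast before implantation, formative cells resemble it shortly after, when it becomes competent for the germ layers and germ cells, and primed EpiSC resemble the epiblast close to gastrulation. EpiLC are a transient culture that naive cells pass through as they leave the naive state. The assay, ATAC-seq, marks DNA that the Tn5 transposase can reach, which is mostly promoters and enhancers free of packed nucleosomes. A region called in FS cells and EpiSC and not in ES cells is DNA recorded as accessible in the later states and not in naive cells.

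The promoters in which members lay are shown first, since 53.0% of members covered a transcription start. The 6 windows were taken at members named further on: 2 at genes of pluripotency and DNA methylation (Dnmt3a and Utf1), 2 with the highest peak ranks among starts (Zfp385a and Slc46a3) and 2 that were also open in the Rd2 EpiLC and EpiSC libraries (Clstn3 and Ahi1). Each runs 5′ to 3′ from 250 bases before the start to 50 after it, from RefSeq on GRCm38.p6, the build that mm10 names. Capitals mark the letters of the GC box (GGGCGG, the core that Sp and Klf zinc-finger proteins bind) and of the CCAAT box (CCAAT, bound by NF-Y), on either strand.
Dnmt3a, chr12:3891494-3891793, plus strand: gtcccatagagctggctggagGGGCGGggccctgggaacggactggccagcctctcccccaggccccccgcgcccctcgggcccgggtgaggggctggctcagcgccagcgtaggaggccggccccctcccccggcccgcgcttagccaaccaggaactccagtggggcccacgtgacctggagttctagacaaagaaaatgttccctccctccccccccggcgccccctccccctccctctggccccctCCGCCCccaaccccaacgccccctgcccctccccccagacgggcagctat
Utf1, chr7:139943606-139943905, plus strand: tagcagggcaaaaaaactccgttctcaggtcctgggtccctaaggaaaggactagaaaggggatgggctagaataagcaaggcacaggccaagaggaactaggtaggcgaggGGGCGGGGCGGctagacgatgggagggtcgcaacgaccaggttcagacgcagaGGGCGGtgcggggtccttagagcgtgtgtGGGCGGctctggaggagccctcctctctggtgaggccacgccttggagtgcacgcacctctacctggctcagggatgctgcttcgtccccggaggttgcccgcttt
Zfp385a, chr15:103334289-103334588, minus strand: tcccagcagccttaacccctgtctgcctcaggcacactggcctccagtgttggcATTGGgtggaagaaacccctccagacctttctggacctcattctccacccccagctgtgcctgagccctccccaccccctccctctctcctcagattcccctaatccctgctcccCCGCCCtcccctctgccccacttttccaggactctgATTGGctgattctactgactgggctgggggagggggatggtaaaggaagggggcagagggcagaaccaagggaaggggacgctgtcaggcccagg
Slc46a3, chr5:147894766-147895065, minus strand: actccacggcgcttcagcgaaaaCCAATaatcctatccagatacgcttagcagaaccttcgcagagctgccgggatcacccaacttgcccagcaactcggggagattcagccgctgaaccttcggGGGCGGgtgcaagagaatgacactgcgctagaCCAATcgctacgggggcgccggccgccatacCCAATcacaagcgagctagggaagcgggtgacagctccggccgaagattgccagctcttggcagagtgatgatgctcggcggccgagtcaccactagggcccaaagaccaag
Clstn3, chr6:124464735-124465034, minus strand: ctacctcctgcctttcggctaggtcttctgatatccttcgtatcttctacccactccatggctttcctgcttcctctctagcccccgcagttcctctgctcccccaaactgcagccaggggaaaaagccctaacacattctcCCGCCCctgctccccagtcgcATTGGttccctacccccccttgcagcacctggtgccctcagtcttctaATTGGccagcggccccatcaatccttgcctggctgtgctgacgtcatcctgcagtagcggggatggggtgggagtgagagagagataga
Ahi1, chr10:20952297-20952596, plus strand: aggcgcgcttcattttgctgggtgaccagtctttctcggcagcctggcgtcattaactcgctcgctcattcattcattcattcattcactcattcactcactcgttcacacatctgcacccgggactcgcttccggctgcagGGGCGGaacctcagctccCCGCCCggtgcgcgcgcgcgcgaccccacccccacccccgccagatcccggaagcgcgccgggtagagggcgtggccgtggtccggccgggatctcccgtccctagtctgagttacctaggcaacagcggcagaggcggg

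The Dnmt3a window lay inside the gene, 90.2 kb from the first base of its span, at 1 of 3 starts in the RefSeq table. Dnmt3a encodes a DNA methyltransferase that sets new methylation, and an internal promoter is known to give its shorter isoform. The window had a GC content of 74.0% with 18 CpG, 2 GC boxes and no CCAAT box. Utf1, a chromatin protein of pluripotent cells, had 4 GC boxes, some of them overlapping, and 17 CpG. The Slc46a3 window, of a lysosomal transporter gene, held 3 CCAAT boxes and 1 GC box. Zfp385a, a zinc-finger gene, and Clstn3, a calsyntenin of synapses, each had 2 CCAAT boxes and 1 GC box, but 2 and 8 CpG. Ahi1, a gene of the primary cilium, had 31 CpG and 2 GC boxes. Over these 6 windows the number of CpG ran from 2 to 31 and GC content from 58.3% to 74.0%.

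Across all members, 253 promoter windows of 228 protein-coding genes were overlapped. Windows on chromosome 18 were not used here, so the 13 members there entered no count of windows or motifs. Their median GC content was 62.0%, against 64.7% for the 2444 windows at regions open in all 6 lines and 56.3% for every one of 21262 windows. The median ratio of observed to expected CpG was 0.657 in member windows, 0.804 in the windows open in all 6 lines and 0.567 in every window. A GC content of at least 50% with a ratio of at least 0.6 was met by 57.3% of member windows, 85.3% of those open in all 6 lines and 45.1% of every window. Member promoters thus sat between the constitutively open promoters and promoters at large in CpG density. The 119 windows at regions found in ES only had a ratio of 0.815.

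The letters of 17 motifs were searched on both strands of these windows. The GC box was in 71.5% of member windows, 82.0% of windows open in all 6 lines and 46.2% of every window. The CCAAT box followed with 60.9%, 63.5% and 38.2%. The core of the CTCF site (AGGNGGC) was in 39.9%, 49.9% and 33.6%, and can overlap a GC box. These 3 motifs were more frequent in members and in windows open in all 6 lines than in every window. In the ES-only windows the GC box was in 64.7% and the CTCF core in 37.8%, but the CCAAT box in 37.0%, below its share of every window. ETS letters (CCGGAAGT) were less frequent in members, at 2.77% against 7.82% of windows open in all 6 lines and 5.15% of every window. The ZIC letters (CAGCAGG) were in 13.0%, 8.72% and 10.5% of the same sets. The KLF letters (CCCCACCC), which can share end letters with a GC box, were in 15.8%, 13.1% and 11.0%, so they too were least frequent in every window. The octamer (ATGCAAAT), bound by POU factors such as OCT4, was in 1.98% of member windows, the SOX letters (ACAATGG) in 1.98% and the OTX letters (TAATCC) in 7.91%, against 1.66%, 2.92% and 6.42% of every window. A match describes the letters of the window and nothing about binding.

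**Figure D1:**
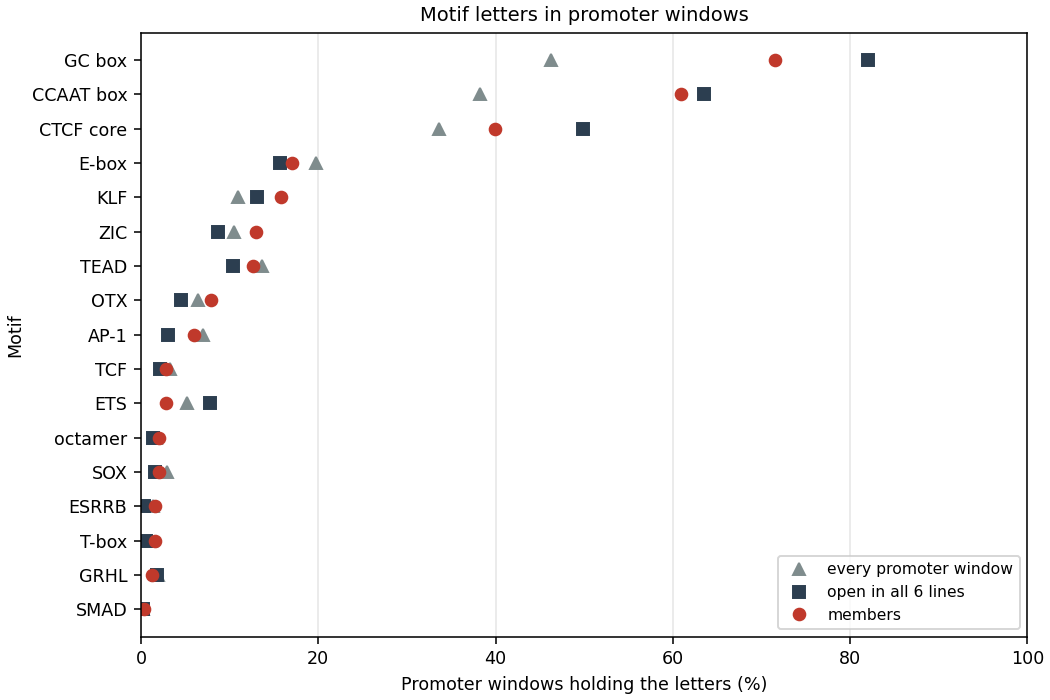
Percent of promoter windows (x axis) that held the letters of each motif (y axis) on either strand, for member windows (red circles, 253), windows open in all 6 lines (dark squares, 2444) and every promoter window (grey triangles, 21262). The GC box and CCAAT box stand at 71.5% and 60.9% of member windows, above every window and below or near the windows open in all 6 lines.

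Depth was unknown, since the lists give no read counts, and list length stood in for it. The 18 first-set lists held 8044 to 31263 peaks, shortest in ES (8044 to 10961) and FS2 (11796 to 14147). The Rd2_GFP lists held 471 and 2576 peaks, against 7469 to 26045 in Rd2_EpiLC and 10719 and 11252 in Rd2_AFX. The labels were checked with marker genes, a gene counting as marked where a deposited list had a peak inside it or within 1 kb. Zfp42, a naive marker, was marked by all 3 ES libraries and by 1 of the 15 FS and EpiSC libraries. Of 5 formative markers, Fgf5, Dnmt3b and Tcf15 were marked by 0 of 3 ES libraries and by 14, 15 and 15 of the 15, Pou3f1 by 1 and 15, and Otx2 by 0 and 5, of which 1 was an FS1 and 3 were FS2 libraries. Esrrb, Klf4 and Tfcp2l1 were marked by all 3 ES libraries and by 14 or 15 of the others, so these 3 naive genes did not separate the groups at this resolution. Tbx3 was marked by 3 and 13, and Nr5a2, also on the naive list, by 1 and 13. Of 5 primed markers, Eomes was marked by 2 ES libraries and all 15, Zic2 by 1 and 12, Fgf8 and Foxa2 by 0 and 12, and T by 0 and 6, and Fgf8, Zic2 and Foxa2 were marked by 0 of 3 FS2 libraries. Of genes of other cell types, Pax6 was marked by 0 ES libraries and 12 of the 15, Col1a1 by 0 and 11, and Cdx2 by 1 and 11. Their part in the results was not tested. Of core genes, Sox2 was marked by 3 ES libraries and 14 of the 15, and Pou5f1 and Sall4 by 1 and 13. No marker, Zfp42 included, had a peak in either Rd2_GFP list, so the ES label of those libraries could not be checked. The genes marked by all 4 Rd2_EpiLC libraries at once were 2 of 5 formative, 1 of 6 naive and 1 of 5 primed. Those marked by both Rd2_AFX libraries were 3, 2 and 2. A single library could mark more, and each of the 6 naive genes was marked by some Rd2_EpiLC library. Zfp42 was marked by 2 of 4 Rd2_EpiLC libraries, and 3 of the 5 primed genes by no Rd2_AFX library.

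Since the rule used the first-set lists, the values there are a description with no test. At the equal length, members were held by 462, 459 and 469 of 498 in the FS1 libraries, and by 441, 417 and 424 in FS2. The EpiSC libraries held 460, 450 and 465 (AF), 448, 461 and 473 (AFX1), and 460, 471 and 472 (AFX2). FS2 held the fewest, 85.8% ± 2.52 (SD, n = 3) against 92.1% to 93.9% as means of the other 4 lines. All 15 lists held 165 members, 14 lists 154, 13 lists 95, 12 lists 45, 11 lists 36 and 10 lists 3. In the lists as deposited, 393 members were in all 15 and 101 in 14, so many of the gaps at equal length were peaks of lower rank. Both the count and the regions behind it moved with the settings. Ranking by fold gave 491 regions, which met 400 of the 498 members, a covered share of 50% gave 434 that met 183, and a −log10 q minimum of 5 gave 479 that met 74. The lists as deposited gave 2623 that met 432, the top 5000 peaks 254 that met 170, and 3 of 3 lists of each line 165.

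The border of the rule toward ES was not sharp. Of 3910 regions held by all 5 FS and EpiSC lines, 498 met no ES list, 537 met 1, 744 met 2 and 2131 met all 3. Regions just outside, with 1 ES list, had that ES peak at a median percentile rank of 43.1 to 47.6 within the top 8044 of the ES list. Just inside, 62 members met 1 ES list and 4 met 2 once peaks past the 8044 were counted, in ES library 1 (47 members, 9.44%) and ES library 3 (23, 4.62%). ES library 2 had no further peaks to count. The remaining 432 (86.7%) met no ES peak at any rank deposited. Toward the lines, 607 regions without an ES peak in the top 8044 missed the rule by 1 line. That line was FS2 in 293 of them, EpiSC_AF in 102, EpiSC_AFX1 in 89, EpiSC_AFX2 in 78 and FS1 in 45.

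**Figure D2:**
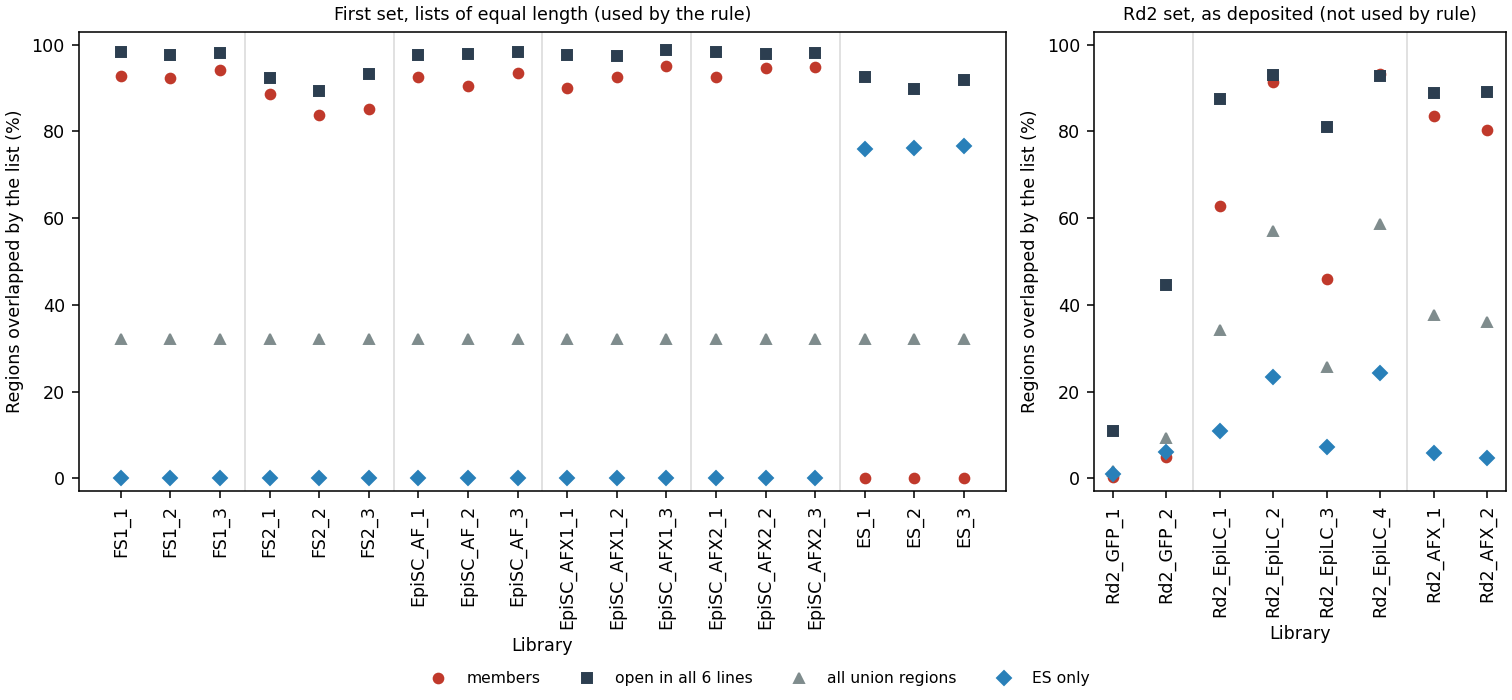
Percent of regions (y axis) overlapped by each library's list (x axis), for members (red circles), regions open in all 6 lines (dark squares), all union regions (grey triangles) and regions in ES only (blue diamonds). In the left panel, whose values the rule used, members stand at 83.7% or more in FS and EpiSC; in the right panel, not used by the rule, they stand at 46.0% to 93.2% in Rd2_EpiLC and Rd2_AFX and at 0.201% and 5.02% in Rd2_GFP.

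The Rd2 lists, which the rule had not used, held 46.0% to 93.2% of members in EpiLC and EpiSC libraries and at most 5.02% in the ES libraries. As deposited, the 4 Rd2_EpiLC lists overlapped 312, 455, 229 and 464 members (62.7%, 91.4%, 46.0% and 93.2%), and the 2 Rd2_AFX lists 416 and 400 (83.5% and 80.3%). The 2 Rd2_GFP lists overlapped 1 and 25 (0.201% and 5.02%). Both EpiLC and AFX lay above GFP with no overlap, while the AFX shares fell inside the EpiLC range, and the 2 longest EpiLC lists held the most. Of all union regions, the same lists overlapped 34.1%, 57.1%, 25.6% and 58.7% (EpiLC), 37.7% and 36.1% (AFX), and 1.72% and 9.37% (GFP). Members were thus met 1.59 to 1.84 times as often as union regions at large in EpiLC, 2.22 and 2.23 times in AFX, and 0.117 and 0.536 times in GFP. All of the union regions come from first-set peaks, so this ratio compares members with other open regions and not with the genome. Members also had to recur in every FS and EpiSC line, while a union region may come from 1 list. How far this moved the ratio was not tested. Regions held by the same 5 lines and by 1 or more ES lists were met more often than members, as given below.

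Mean hold was 73.3% ± 23.0 (SD, n = 4) in Rd2_EpiLC and 2.61% ± 3.41 (n = 2) in Rd2_GFP, a difference of 70.7 percentage points (two-sided exact permutation test, p = 0.0667, the smallest that 15 assignments allow; adjusted over 3 tests 0.2). In Rd2_AFX it was 81.9% ± 2.27 (n = 2), 79.3 points above Rd2_GFP (exact permutation p = 0.333, the smallest that 6 assignments allow; adjusted 0.333). Neither design can reach 0.05. The shortness of the Rd2_GFP lists moves with both differences. At the length of the shortest list, 471 peaks, the differences were 0.251 and 1.1 points, and no list held more than 2.01% of members.

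A comparison at 2576 peaks, the length of the longer Rd2_GFP list, was added after the list lengths were seen. At that length Rd2_GFP library 2 held 5.02% of members, the EpiLC libraries 14.9%, 21.3%, 13.7% and 19.5%, and the AFX libraries 28.3% and 28.1%. All 6 lay above the ES library, although the 7 lists met like shares of all union regions (9.37% to 10.1%). Regions open in all 6 lines were met by 44.5% in Rd2_GFP and by 49.4% to 58.5% in the others. Regions found in ES only went the other way, with 5.98% in Rd2_GFP, 1.09% to 1.79% in EpiLC and 0.155% and 0.0777% in AFX. Rd2_GFP then has 1 library, so the difference has no replicate check on the ES side.

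EpiLC and EpiSC libraries were set side by side at 7469 peaks, the shortest of their 6 lists. The EpiLC libraries held 50.6%, 62.4%, 46.0% and 61.2% of members and the AFX libraries 72.5% and 67.3%. Both AFX values lay above all 4 EpiLC values. The means were 55.1% ± 8.06 (SD, n = 4) and 69.9% ± 3.69 (n = 2), a difference of -14.8 points (two-sided exact permutation test, p = 0.133, adjusted 0.2, smallest possible 0.0667), so the difference did not pass the test. The difference turned to 1.66 when 50% of a member's length had to be covered and to 12.0 when a −log10 q minimum of 5 was set in lists of unequal length. The titles of the EpiLC libraries carry 2 cell numbers with 2 libraries each. Averaged by that number, the values were 56.5% and 53.6%, still below both AFX libraries (exact permutation p = 0.333, smallest possible 0.333). Regions open in all 6 lines were met about equally, by 81.0% to 85.5% in these 6 lists.

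**Figure D3:**
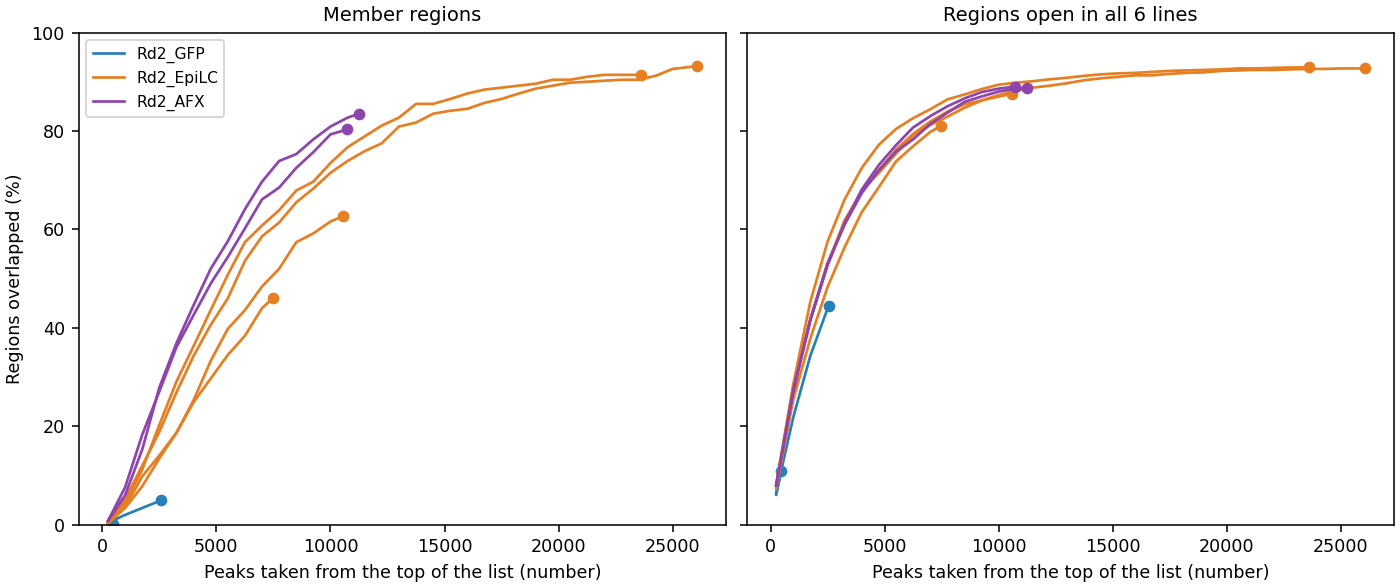
Percent of member regions (left) and of regions open in all 6 lines (right) overlapped (y axis) as more peaks are taken from the top of each Rd2 list (x axis, number of peaks), 1 line per library, ending in a dot at the deposited length. On the left the AFX lines (purple) run above the EpiLC lines (orange) at 7469 peaks, 67.3% and 72.5% against 46.0% to 62.4%. On the right these lines lie closer together at that length, at 81.0% to 85.5%. Of the Rd2_GFP lines (blue), library 1 ends at 0.201% (left) and 10.9% (right) and library 2 at 5.02% and 44.5%.

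Counted by region, 339 members (68.1%) were in at least 3 of the 4 EpiLC lists, against 36.1% of all union regions. Both AFX lists held 365 (73.3%, against 28.7%), and either Rd2_GFP list 26 (5.22%, against 9.79%). For regions open in all 6 lines these shares were 89.3%, 86.5% and 46.1%, and for regions in ES only 11.5%, 2.41% and 6.37%. Members were in at least 3 EpiLC lists and both AFX lists in 284 cases (57.0%). Of the disjoint patterns, 3 members were in both AFX lists and no EpiLC list, and 4 were in all 4 EpiLC lists and no AFX list. A further 17 were in no Rd2 list. The strictest pattern, all 4 EpiLC and both AFX lists, no Rd2_GFP list and no ES list at full length, was met by 127 members, 55 of them held by all 15 first-set lists. These joint patterns were counted for members only. Without their shares of all union regions, they are read as no trait of the members.

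Among regions that all 5 FS and EpiSC lines held, Rd2_GFP met more of those with more first-set ES lists. Either Rd2_GFP list met 5.22% of regions with 0 ES lists (the members), 78 of 537 with 1, 27.3% with 2 and 52.7% with 3. Hold in at least 3 EpiLC lists was 68.1%, 84.2%, 90.9% and 88.8%, and in both AFX lists 73.3%, 81.9%, 86.8% and 86.3%. Of the 4 classes, members were the least often met in each Rd2 group. Width moved with this order, with medians of 529, 636, 690 and 771 bp, while the share within 1 kb of a transcription start was 55.6%, 73.7%, 84.5% and 78.6%, lowest in members and highest with 2 ES lists. Their part in the result was not tested.

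By position, members were split between promoters and distal DNA. The nearest protein-coding start was within 1 kb for 277 members (55.6%), 264 of which covered a start. A further 81 (16.3%) lay at 1 to 10 kb, 125 (25.1%) at 10 to 100 kb and 15 (3.01%) beyond 100 kb. For regions open in all 6 lines 80.2% lay within 1 kb, for regions in ES only 11.8% and for all union regions 41.4%. Members were thus less often at promoters than constitutive regions and more often than ES-only regions. Of the 221 members beyond 1 kb, 135 (61.1%) lay inside a gene span, against 41.6% of such union regions, 44.4% of those open in all 6 lines and 31.0% of those in ES only. Members ranged from 249 to 2118 bp, with a median of 529 bp against 752 bp for regions open in all 6 lines.

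**Figure D4:**
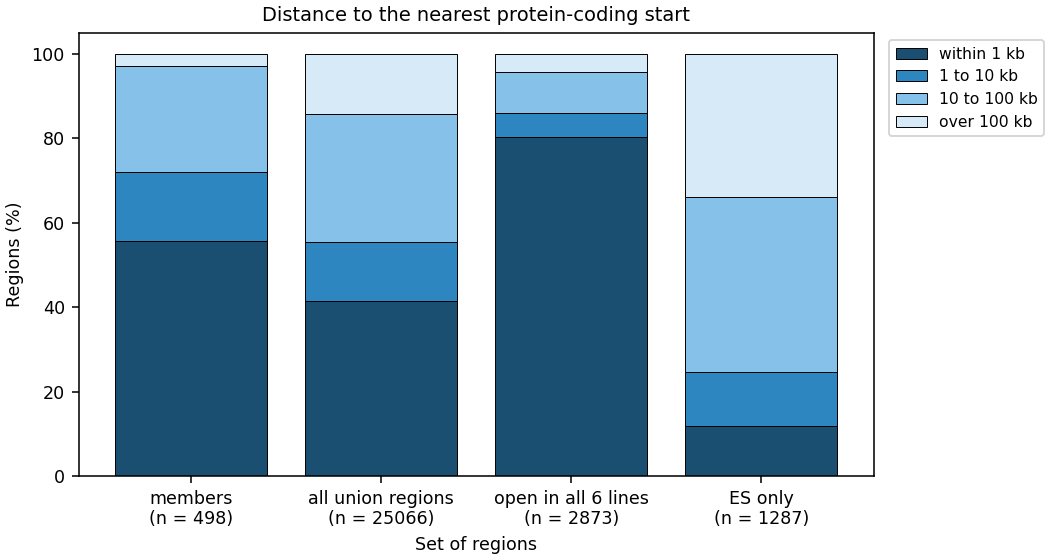
Share of regions (y axis, %) by distance to the nearest protein-coding transcription start (shades from dark, within 1 kb, to light, over 100 kb) in 4 sets of regions. Members have 55.6% within 1 kb, between 80.2% of regions open in all 6 lines and 11.8% of regions in ES only; 2 union regions on a sequence without genes are left out.

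Promoter and distal members had like ranks in the first set. The median of the mean percentile rank was 50.5 for the 277 members within 1 kb and 50.1 for the 140 beyond 10 kb, and all 15 lists held 90 (32.5%) and 47 (33.6%). In the Rd2 set at 7469 peaks, promoter members were held by 55.6%, 66.8%, 48.0% and 63.5% in EpiLC and 75.8% and 74.0% in AFX. Distal members were held by 47.1%, 60.0%, 48.6% and 61.4% and by 69.3% and 58.6%. Promoter members were the more often held in 5 of the 6 libraries. They also had the wider regions (median 597 against 476 bp) and more often a peak in a full-length ES list (47, or 17.0%, against 13, or 9.29%). By chromosome, 11 had the most members, 50 (10.0%, against 6.59% of union regions), followed by 7 with 44 and 2 with 43. The X had 6 (1.2% against 2.58%), and the Y had 0 of its 94 union regions.

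To describe strength, each peak was given its percentile rank by −log10 p within its own list (100 the strongest), a list without a peak counting as 0. First-set lists were cut to the equal length for this, so a peak past the cut also counted as 0. The mean rank over the 15 first-set lists ran from 13.9 to 96.9 across members, with quartiles of 38.2, 50.2 and 62.0. Where a list had a peak, the median member rank was 51.9 to 62.7 by library, against 69.2 to 78.4 for regions open in all 6 lines. Members were thus of middle strength among the top peaks kept from the lists that define them. All FS and EpiSC lists were longer as deposited, so these ranks do not place members among all deposited peaks. On average, 248 members ranked higher in FS and 250 in EpiSC. The rule asked for peaks in both kinds of line, so it favoured such a balance.

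The strongest member lay inside Scn8a (chr15:100908821-100909253), a voltage-gated sodium channel gene, 27.0 kb from its nearest start, with ranks of 87.7 to 99.4 (median 97.2) in FS and 87.1 to 99.6 (median 99.3) in EpiSC. Its ranks in Rd2 were 49.6, 77.3, 36.5 and 94.6 in EpiLC and 47.3 and 51.0 in AFX, and it had no ES peak. All ranks given for Rd2 libraries refer to lists as deposited, of unequal length. The next lay in Nfic (chr10:81416459-81417022), which encodes a nuclear factor I transcription factor, 10.2 kb from a start. There FS1 ranked 98.2, 97.9 and 99.0, FS2 82.8, 32.2 and 64.2, and the 9 EpiSC libraries 94.4 to 99.5 (median 98.7). FS2 alone stood low. Its EpiLC ranks were 96.0, 99.2, 92.0 and 98.2 and its AFX ranks 60.5 and 95.6.

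Most of the 10 members with the highest mean rank were distal. A member 94.4 kb from Sipa1l2 (chr8:125397917-125398389), of a family of Rap GTPase regulators, ranked 67.0 to 98.8 (median 96.6) in FS and 33.9 to 99.1 (median 96.4) in EpiSC, the low value being EpiSC_AFX1 library 1. The members nearest to Lrrc4c (chr2:95448865-95449360), a netrin-G ligand gene, and Mn1 (chr5:111755381-111755667), a transcriptional coregulator gene, lay 869 and 298 kb from any protein-coding start. The Lrrc4c member ranked 75.3 to 95.8 (median 85.9) in FS and 80.6 to 88.9 (median 85.3) in EpiSC, and the groups overlapped. In the Rd2 lists it ranked 79.7 to 98.3 (median 91.3) in EpiLC and 94.2 and 99.2 in AFX. A member in Ttc28, 91.0 kb from the start of Pitpnb (chr5:111239177-111239654), ranked 52.3, 94.3 and 37.1 in FS2 and 93.5, 97.4 and 96.2 in FS1, so 2 FS2 libraries stood below all of FS1. The member in Sdk2 (chr11:113990466-113990917), an adhesion molecule gene, was ranked 70.6 to 90.6 (median 86.1) in FS and 82.1 to 96.9 (median 90.0) in EpiSC. Among starts, Zfp385a (chr15:103334149-103334581) ranked 71.7 to 97.9 (median 91.0) in FS and 75.5 to 94.5 (median 87.9) in EpiSC, and Slc46a3 (chr5:147894633-147895651) 75.4 to 96.9 (median 92.6) and 58.9 to 97.4 (median 92.8).

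The member in Spock1 (chr13:57732284-57732670), which encodes the proteoglycan testican, was missing from every EpiLC list. It was held by all 15 first-set lists, with ranks of 97.3, 98.3 and 99.1 in FS1, 79.0, 7.05 and 83.0 in FS2 and 81.3 to 99.3 (median 96.1) in EpiSC. Both Rd2 AFX lists had the peak (70.6 and 91.8). It was 1 of the 3 members in both AFX lists and no EpiLC list.

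Members with the firmest hold in the independent lists were named from the 55 found in all 15 first-set lists, all 4 EpiLC and both AFX lists, and in no ES or Rd2_GFP list. Besides Lrrc4c, Sipa1l2, Nfic and the Ttc28 member, those with the highest mean Rd2 rank included the transcription starts of Clstn3, Rsbn1l and Ahi1. Clstn3 (chr6:124464644-124465122) ranked 97.4, 96.2, 49.0 and 96.9 in EpiLC and 88.4 and 87.8 in AFX. Rsbn1l (chr5:20951677-20952092) ranked 81.0, 97.6, 53.3 and 96.9 and 92.7 and 88.2. The Ahi1 start (chr10:20952063-20952906) ranked 9.10 to 67.4 (median 29.7) in FS and 42.0 to 85.4 (median 71.7) in EpiSC, which overlapped. Its Rd2 ranks were 93.3, 98.2, 64.8 and 76.1 in EpiLC and 90.4 and 78.9 in AFX. A member inside Notch1, 14.3 kb from the Sec16a start (chr2:26459473-26459876), and one 36.1 kb from Jam3 (chr9:27191536-27192490), a junctional adhesion molecule gene, were also among them.

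At the other end, the strongest of the 17 members in no Rd2 list lay 28.9 kb from Dlk1 (chr12:109423502-109423959), an imprinted gene for a ligand related to Delta. It ranked 98.2, 98.1 and 99.3 in FS1, 52.0, 28.8 and 0 in FS2 and 79.3 to 99.3 (median 98.1) in EpiSC, and 1 ES list reached it at full length. FS2 lay below every FS1 and EpiSC library. The other 4 named were at Gm13289 (chr4:88776182-88777038), Cog6 (chr3:52985552-52985897), whose product tethers Golgi vesicles, Gdpd5 (chr7:99405479-99405973) and Gm3173 (chr14:4498774-4500281), with mean ranks of 78.2, 75.9, 74.4 and 70.0. Strong peaks in the first set were therefore no guarantee of a peak in Rd2. The members at Gm2956, Gm3264 and Gm3194, near Gm3173 on chromosome 14, were also in no Rd2 list. The 17 may therefore not all be separate cases.

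Genes of 10 pathway and marker lists were set against members by distance. Of their 126 genes, 8 (6.35%) had a member within the gene or 20 kb of it, against 4.15% of all protein-coding genes and 20 (15.9%) of the same 126 near a region open in all 6 lines. The naive list had 0 of 13 genes, the primed list 0 of 16 and the FGF and ERK list 0 of 19. The formative list had 1 of 13 (Dnmt3a), the core pluripotency list 1 of 8 (Utf1), Nodal and Activin 1 of 16 (Foxh1), Wnt response 1 of 20 (Nkd1), epithelial and adhesion genes 2 of 14 (Cldn4 and Cldn7), DNA methylation 2 of 8 (Dnmt3a and Tet3) and genes of other cell types 1 of 13 (Col1a1). With 100 kb as the window the count was 20 (15.9%), against 11.4% of all protein-coding genes. These counts are a description, and nothing particular to the lists is read from them.

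At the Dnmt3a internal start (chr12:3891393-3891898), FS1 ranked 59.0, 87.0 and 86.9, FS2 49.2, 0 and 40.2 and the 9 EpiSC libraries 33.7 to 92.1 (median 88.8). EpiLC ranked 23.6, 54.6, 30.1 and 93.3 and AFX 55.2 and 9.11. Every Rd2 EpiLC and AFX list had the peak, no ES list did at any rank, and FS and EpiSC overlapped. Tet3, which oxidises 5-methylcytosine, had a member inside the gene, 19.3 kb from its start (chr6:83421721-83422425), in 13 of 15 lists at 0 to 80.7 (median 26.1) in FS and 0 to 73.4 (median 34.4) in EpiSC, in 3 EpiLC and both AFX lists, and in 1 full-length ES list. A second member, 66.9 kb from the span of Dnmt3a and inside Efr3b (chr12:3981328-3981875), was in 14 lists, 3 EpiLC, both AFX and 1 full-length ES list.

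The Utf1 promoter (chr7:139943626-139944467) ranked 63.8, 0 and 58.7 in FS1 and 0, 26.6 and 20.4 in FS2, and 17.6 to 84.1 (median 59.0) in EpiSC. It was among the strongest peaks in 2 EpiLC libraries (96.6, 98.6, 0 and 76.3) and was found in 1 AFX library (81.8 and 0). The groups overlapped, with means of 28.2 in FS and 60.2 in EpiSC.

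In the signalling lists, the member near Foxh1, which encodes the partner of Smad proteins in Nodal signalling, lay 10.7 kb away inside Cyhr1 (chr15:76656798-76657171) and ranked 0 to 96.3 (median 17.4) in FS and 16.5 to 66.4 (median 51.8) in EpiSC, with 2 EpiLC lists and 1 AFX list. The member 9.19 kb from the span of Nkd1, which encodes a Dishevelled antagonist in Wnt signalling, lay between genes (chr8:88604080-88604440), 76.4 kb from the Nkd1 start. This member was low in FS2 (8.09, 0 and 8.75), 48.3, 47.3 and 81.2 in FS1 and 0 to 90.2 (median 78.6) in EpiSC. All 4 EpiLC and both AFX lists held it. The 2 claudin genes, of tight junctions, had their members at other genes' starts. The Cldn4 member was at the start of Mettl27 (chr5:134932173-134933138), 12.0 kb away, and the Cldn7 member at that of Slc2a4 (chr11:69947799-69949148), 15.6 kb away, the insulin-responsive glucose transporter gene. Mettl27 was among the weaker members at 4.71 to 72.4 (median 35.9) in FS and 3.57 to 55.5 (median 25.9) in EpiSC. Slc2a4 ranked 0 to 85.6 (median 54.2) and 19.1 to 84.6 (median 63.3), in all 4 EpiLC and both AFX lists.

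The member 7.02 kb from Col1a1 (chr11:94928773-94929206), the gene of a fibroblast collagen, was held by all 15 first-set lists. It ranked 82.9, 89.5 and 60.9 in FS1 and 60.8, 73.5 and 67.6 in FS2, against 11.4 to 66.3 (median 35.6) in EpiSC, where AFX2 library 3 overlapped the FS range. It was in 1 EpiLC list, at 3.37, and in no AFX list of the Rd2 set.

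Of the 126 genes, 12 had a member 20 to 100 kb from the gene span and none nearer. Of these genes, 6 were picked out after their values were seen and are given first, with distances to the span. They included Nanog (27.8 kb, inside Slc2a3, in 14 of 15 lists, 2 EpiLC and both AFX lists), Pou3f1 (39.3 kb, inside Fhl3, 13, 3 and both), Tdgf1, the Nodal co-receptor gene (48.5 kb, 15, 4 and both), Lhx5 (69.5 kb, 14, 4 and both) and Acvr1b, an Activin receptor gene (52.7 kb, inside Nr4a1, 14, 4 and both). The member 92.3 kb from Cdh1, the E-cadherin gene, lay in its neighbour Cdh3 (13, 3 and both). The start of Acvr1b was farther from its member than the span, at 92.3 kb. All of these 6 were in both AFX lists, but not all of the others were. Uhrf1 (14 of 15 lists, 2 EpiLC) and Spred1 (12 and 4) had a member in 1 AFX list. Those of Cldn3 (15 and 3), Cldn6 (14 and 4), Skil (15 and 2) and Fzd2 (13 and 3) were in both, and the Fzd2 member also met 1 Rd2_GFP list. Distance alone does not tie a region to a gene. No gene was nearest to 3 or more members, and the 498 members were spread over 487 genes.

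FS and EpiSC were compared by mean rank within the members. The rule chose members for peaks in both, which made a clean split less likely, so the comparison is a description. The difference, FS minus EpiSC, ran from -42.0 to 53.2. Complete separation was rare: in 2 members every FS library ranked above every EpiSC library, and in 0 the reverse. Those 2 lay 28.2 kb from Smug1 (chr15:103133725-103135079), a uracil DNA glycosylase gene, and at the start of Ube2u (chr4:100478581-100478927), an E2 enzyme gene of the ubiquitin system. Smug1 ranked 67.1 to 88.2 (median 81.0) in FS and 0 to 59.6 (median 22.2) in EpiSC, and Ube2u 80.8 to 94.4 (median 88.9) and 0 to 74.0 (median 47.6). The third was inside Vash1 (chr12:86688052-86688419), at 16.4 to 87.5 (median 69.4) and 0 to 39.8 (median 15.3), and the groups overlapped. Toward EpiSC the most unequal were the starts of Uchl1 (chr5:66675969-66677038), a ubiquitin hydrolase of neurons, Pkdcc (chr17:83213511-83215628), a secreted kinase gene, and Armcx4 (chrX:134686195-134686707). Uchl1 ranked 0 to 59.3 (median 23.6) in FS and 41.2 to 88.7 (median 66.4) in EpiSC, and Armcx4 0 to 36.8 (median 9.01) and 26.6 to 90.0 (median 53.8). Pkdcc had 0 to 64.7 (median 31.8) and 43.8 to 96.7 (median 75.2), was the widest member at 2118 bp and met 2 full-length ES lists. In all 3 the groups overlapped, FS2 library 1 or 2 had no peak at the equal length, and the FS2 lists were short. In the lists as deposited, Uchl1 had a peak in all 15, and Pkdcc and Armcx4 in 14 each.

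**Figure D5:**
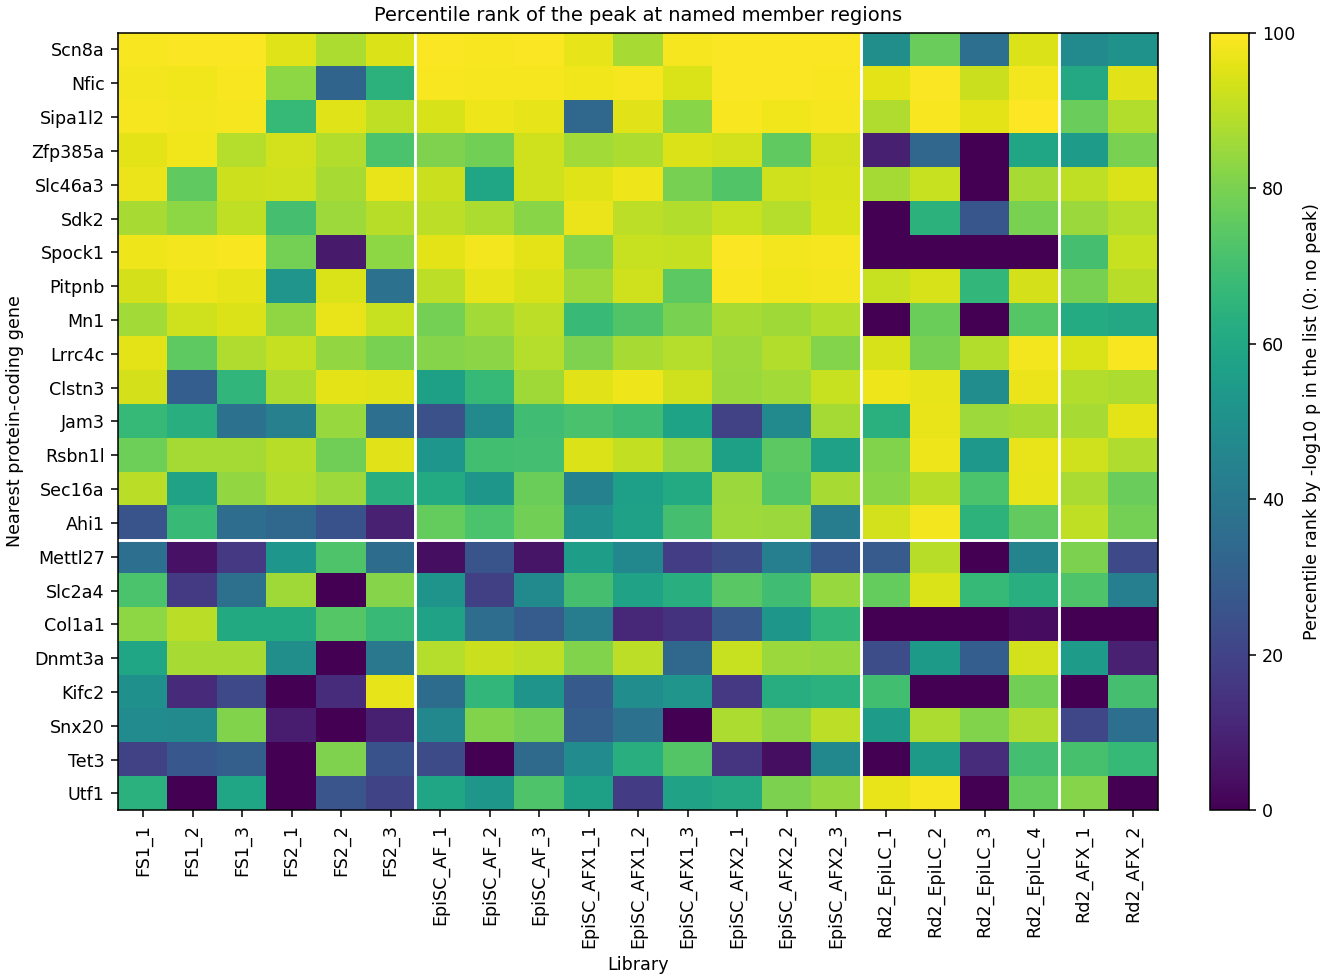
Percentile rank by −log10 p within each list (colour, 0 for no peak) of the peak at named members (rows, by nearest protein-coding gene) in FS, EpiSC, Rd2_EpiLC and Rd2_AFX libraries (columns, divided by white lines). FS and EpiSC lists were cut to the equal length, and Rd2 lists are as deposited. The upper rows were chosen for the highest ranks in the first set or in Rd2, Scn8a first at a mean of 96.9. The lower rows were chosen for their distance to genes of the pathway lists and not by rank. Spock1 and Col1a1 are dark in EpiLC.

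Among microRNA hairpins of the RefSeq table, 1 lay inside a member and 2 within 1 kb of one, picked out after their values were seen. Mir9-3, of the miR-9 family known from neural cells, lay 218 bp from a member (chr7:79504749-79505046) held by all 15 first-set lists, all 4 EpiLC and both AFX lists and no ES list, at a mean rank of 48.1. Mir713 lay inside a member (chr13:62760262-62760886) in 12 of 15 lists, 3 EpiLC and both AFX lists. Mir1191b lay 162 bp from the Nfic member.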

How the data were processed

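Open chromatin was measured by ATAC-seq on 50000 cells per library, per the labels' protocols. The deposited files were 26 peak lists, 1 per library, so peaks were called per sample. The submitters' processing notes name Trim Galore, Bowtie, Picard, MACS2 and mm10, with no versions. For each peak the authors deposited a score, a fold enrichment (a ratio), a −log10 p and a −log10 q. These were used only within a list, to rank, filter or describe peaks, and the score was not used further. Neither read counts nor depth was known, so no counting interval was given. The shortest peak was 150 bp in the first set and 110 bp in Rd2, and ranks are not compared between the sets.

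Regions were formed in Python 3.11.15 (pandas 2.3.3, numpy 2.4.6) by merging overlapping or touching peaks, and an overlap of 1 bp counted. The script was tested on simulated lists with planted members. Nearest genes, starts, hairpins and promoter sequences came from RefSeq on GRCm38.p6: 21896 protein-coding genes, 17491 of them with promoter windows. For the other 4405 the nearer gene end stood for the start. Hold in Rd2 was 1 value per library, compared by exact permutation tests, adjusted over 3 by Benjamini-Hochberg. The members, the gene lists and the naming rules were chosen with earlier results of these data known. Named regions were the 10 members of highest mean first-set rank, the 10 of highest mean Rd2 rank among those met by every FS, EpiSC, EpiLC and AFX list and no ES list (1 of them is not reported here), the 5 strongest in no Rd2 list, those within 20 kb of listed genes, and the 3 most unequal between FS and EpiSC in each direction. Alternatives changed the ranking, list length, overlap, lists needed, peak threshold, libraries, distance and gene window.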

Additional observations from a re-analysis of the deposited data

How the results depend on the processing

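The number of members moved to 254 with the top 5000 peaks, 2623 with the lists as deposited and 165 when all 3 lists of each line were needed, and was 343 to 729 without 1 first-set library. Ranking by fold gave 491, a covered share of 50% gave 434 and a −log10 q minimum of 5 gave 479, although the ES lists then kept only 761 to 1041 peaks and FS2 1238 to 2144. The EpiLC minus AFX difference (-14.8) reversed to 1.66 with 50% of a member covered and to 12.0 with the −log10 q minimum; otherwise it was -20.8 to -8.63, and -17.4 to -11.8 without 1 library. The cause was not tested. EpiLC minus Rd2_GFP kept its sign, from 0.251 at 471 peaks to 74.7 (64.1 to 79.8 without 1 library), and AFX minus Rd2_GFP from 1.1 to 86.7 (76.9 to 81.7). At 2576 peaks, an alternative chosen after seeing the data, they were 12.3 and 23.2. With library numbers as a replicate block, AFX minus Rd2_GFP was 79.3 (exact p = 0.5), and the numbers only name the libraries. Averaging EpiLC by cell number was also added after seeing the data. Within 5 kb of a start lay 64.1% of members, and 20 listed genes had a member within 100 kb. Motifs in 100 bases were not run, since no genome was used here. Depth, unknown, and the short ES lists limit what absence from ES can show.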
